A study of Mus musculus with 118 samples.

Results

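A group of 9 genes for proteins of the extracellular space was followed across single SOM+ interneurons of mouse neocortex. They are *Spon1*, *Thsd7a*, *Nell1*, *Nell2*, *Npnt*, *Crtac1*, *Olfm1*, *Olfm2* and *Olfm3*, that is 9 of the 23998 gene symbols measured. They were chosen by their counts in these same cells, because several of them differed by cortical area or by layer, so the levels and differences below describe how the genes were chosen and no test is attached to them. In Patch-seq, the method used, a cell is first recorded from with a pipette, its content is then aspirated through the same pipette, and the RNA is sequenced. The cells were from adult SOM-Cre/Ai9 mice, in which Cre driven by the somatostatin gene leaves the red marker tdTomato in cells that express or once expressed it, and all groups share this genotype. By the labels, 44 cells came from layer 4 (L4) and 19 from layer 5 (L5) of the primary visual cortex (V1), and 39 and 16 from the same layers of the primary somatosensory cortex (S1). The labels give neither the animal nor the age behind a cell.

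A cell was kept if it had 1500 or more detected genes, no more reads of *Slc17a7*, the vesicular glutamate transporter of cortical excitatory cells, than of the GABA synthesis genes *Gad1* and *Gad2* together, and at least 1 read of *Sst*. This left 42 cells of V1 L4 and 34 of S1 L4 beside 17 and 16 of the respective L5, with total counts between 97904 and 3295232 and a median of 1111830. The kept cell with the fewest detected genes had 1978, and the fullest cell below the limit had 1153. All 9 markers of SOM+ cells that were looked up had reads in each of the 4 groups. Their summed pooled level lay between 5330 and 7020 CPM, counts scaled to the total of the cell. *Sst*, *Gad1* and *Gad2* are among these markers and also part of the filter, so the list is no independent check on the kept cells. In V1 L4 these genes stood at 1684, 1833 and 1395 CPM, of a sum of 6273 CPM for the list. Because no animal is named, each area and layer is 1 sample. Days were read from the date in each label, which gave 9 days in 2 series, and the labels do not say what the date marks. On this count all L5 cells were from days 3 to 6 of the first series. The paper used 6 mice for Patch-seq, fewer than the 9 dates, so some days share an animal and the days are not independent. Levels are given as log2(CPM + 1). A difference is that of the means over cells, and it was also taken within every day with 2 or more cells on either side, with the SD over those days as its spread.

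The 9 genes belong to a few protein families. *Spon1* encodes F-spondin, a secreted matrix protein with thrombospondin repeats that was first described in the floor plate of the spinal cord and binds lipoprotein receptors. *Thsd7a* carries the same kind of repeats but has a membrane span and is found both on the cell and in a shed form, so it is secreted only in part. *Nell1* and *Nell2* encode secreted relatives of thrombospondin with EGF and von Willebrand factor C repeats, and NELL2 repels axons through the receptor Robo3. *Npnt* encodes nephronectin, a ligand of the integrin made of the alpha8 and beta1 chains, and *Crtac1* encodes LOTUS, which binds the Nogo receptor. *Olfm1*, *Olfm2* and *Olfm3* encode olfactomedins, glycoproteins that are found with AMPA receptors and other synaptic surface proteins. In the cortex such proteins are released by neurons into the space between cells, where they can act on axons, synapses and the matrix of their neighbours.

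On the mm10 (GRCm38) genome with the GENCODE annotation, all 9 are protein-coding genes. The sources used here do not say on which gene models the reads were counted, so these positions and exons are those of the annotation. *Spon1* lies on chr7:113765998-114043370 (plus strand), *Nell1* on the same chromosome at chr7:49974864-50866608 (plus), and *Thsd7a* at chr6:12311610-12749410 (minus). *Nell2* lies at chr15:95075230-95528559 (minus), *Npnt* at chr3:132881745-132950291 (minus) and *Crtac1* at chr19:42283035-42431783 (minus). *Olfm1* lies at chr2:28192992-28230736 (plus), *Olfm2* at chr9:20667690-20746349 (minus) and *Olfm3* at chr3:114904078-115125722 (plus). *Crtac1* shares 203 exon bases with an annotated antisense gene that the count table does not list, and reads of the pair cannot be told apart there because the libraries are not stated to keep the strand. The exons of the other 8 members share no bases with an exon of another annotated gene.

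**Figure D1:**
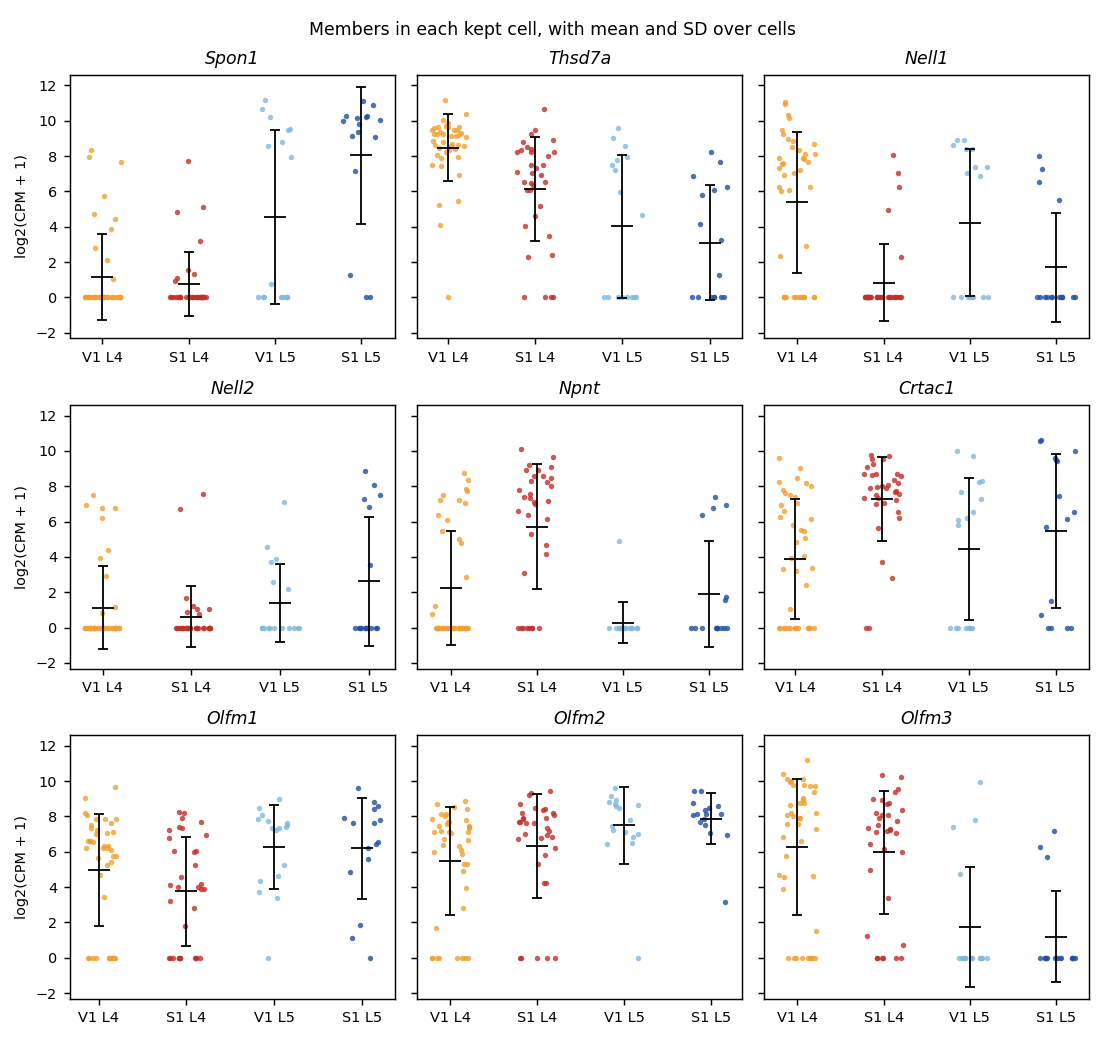
Level of each of the 9 genes in single cells, in log2(CPM + 1) on the vertical axis, by area and layer on the horizontal axis. Each point is a kept cell, and the bars give the mean and SD over the 42, 34, 17 and 16 cells. Many genes were either absent or high, as with *Spon1* in V1 L5, where 8 cells lie at 0 and 8 lie above 7.

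Most members were either without a read or at a high level in a given cell, and every cell had reads of at least 1 of them. The median number of members with a read was 6 of 9 in V1 L4 and 5 of 9 in each other group, with a range over all kept cells from 1 to 8. Reads here are PCR copies without molecular identifiers, so the 95% Clopper-Pearson intervals given below cover counting error only. A cell without a read may also be one in which the RNA was not captured.

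Per length of transcript, in the deposited RPKM, the leading member differed between groups. *Nell1* had the highest mean in V1 L4, at 107.8 RPKM, ahead of *Olfm3* at 88.5 and *Olfm2* at 87.3 RPKM. *Olfm2* led the other 3 groups, with a mean of 136.7 RPKM for S1 L4, 183 for V1 L5 and 209 for S1 L5. *Crtac1* was next in both layers of S1, with a mean of 168.2 RPKM in L5, and *Olfm1* was next in V1 L5, at 86.0 RPKM. The lowest means were those of *Spon1* in V1 L4 and S1 L4 (3.63 and 1.47 RPKM), *Npnt* for V1 L5 (0.365 RPKM) and *Olfm3* for S1 L5 (4.09 RPKM). Neighbours in these orders are close beside the spread over cells, since *Olfm2* alone ran up to 284 RPKM in single V1 L4 cells.

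**Figure D2:**
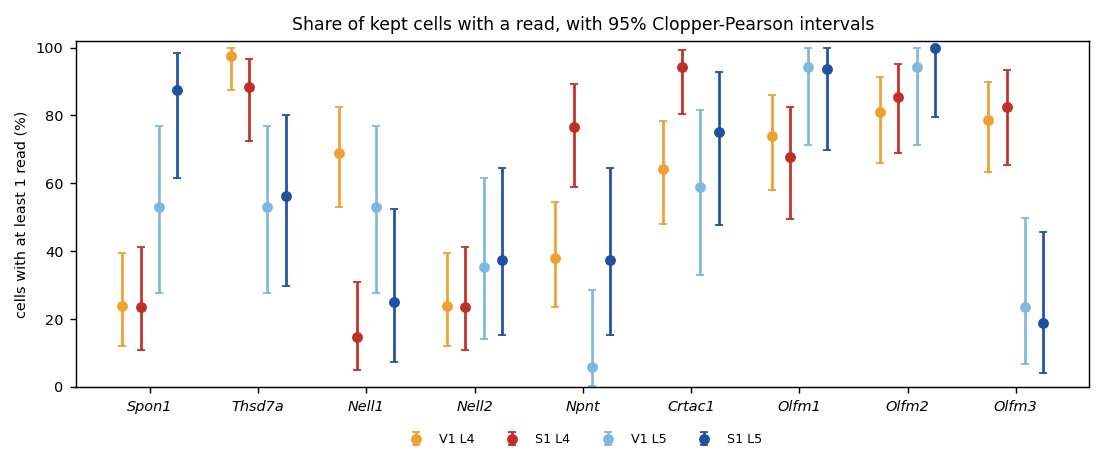
Share of kept cells with at least 1 read of each gene, in percent on the vertical axis, by area and layer. Points are shares and bars are 95% Clopper-Pearson intervals. *Nell1* in L4 stands at 69.0% for V1 and 14.7% for S1, and *Olfm3* at 78.6% and 82.4% in L4 and 23.5% and 18.8% in L5.

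In L4, the 2 areas were set side by side to see which of these genes separate visual from somatosensory SOM+ cells. *Nell1* and *Thsd7a* were lower in S1 and *Npnt* and *Crtac1* were higher, each by more than 4-fold on the log2(CPM + 1) scale and each in the same direction in 5 of 5 days. These are 4 of the 9 members, and all 4 passed the filter of at least 32 counts in at least 10 cells, as did 7 members in all (*Spon1* and *Nell2* did not). Of the 9201 genes past that filter, 1.05% differed by 4-fold or more either way, and 0.554% did so with 1 sign in every day. Since the area difference was part of how the members were picked, nothing is read from that contrast.

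*Nell1* had the lowest S1 minus V1 difference of all 9201 genes in L4. It was read in 29 of 42 V1 cells (69.0%, interval 52.9 to 82.4) and in 5 of 34 S1 cells (14.7%, 4.95 to 31.1). In V1 the lowest cell was at 0 CPM, the median at 138.1 and the highest at 2132 CPM, and in S1 the lowest and the median were at 0 and the highest at 270 CPM. The areas overlap, since each had cells without a read, but most V1 cells lie above most S1 cells. Pooled over cells, the level was 237 CPM in V1 and 11.7 CPM in S1, where 1 cell gave 53.5% of the counts. The log2 means were 5.37 for V1 and 0.84 for S1, a difference of -4.53 with an SD over days of 1.54. Within days 2, 3, 5, 7 and 8 it was -6.10, -2.33, -3.73, -5.75 and -4.12. It was -4.29 in the first series and -4.74 in the second.

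*Thsd7a* was nearly always present in V1, with reads in 41 of 42 cells, and was read in 30 of 34 S1 cells. The V1 cells ran from 0 over a median of 501 to 2304 CPM and the S1 cells from 0 over a median of 125.5 to 1614 CPM. Thus the areas overlap widely and differ in level more than in the share of cells. Pooled over cells, the level was 564 CPM in V1 and 212 CPM in S1. The difference in log2 means was -2.34 (SD over days 1.57), and the values within days were -2.02, -2.00, -4.33, -1.25 and -4.78. The first series gave -2.45 and the second -2.19. It was under 4-fold with a pseudocount of 10 (-1.87), with RPKM (-1.84) and as a difference of medians (-1.98).

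*Npnt* had the opposite pattern, with reads in 16 of 42 V1 cells (38.1%, interval 23.6 to 54.4) and 26 of 34 S1 cells (76.5%, 58.8 to 89.3). In V1 the lowest and median cells were at 0 and the highest at 424 CPM, and in S1 the lowest was at 0, the median at 140 and the highest at 1090 CPM. Its difference of 3.45 in log2 means had an SD over days of 2.82, with 4.33, 4.42, 8.71, 2.80 and 1.10 within the same 5 days. It was 4.59 in the first series and 2.31 in the second. Pooled over cells, the level was 45.6 CPM in V1 and 229 CPM in S1. Among cells with a read the median level was 6.71 on the log2 scale in V1 and 7.67 in S1, so the areas differed in level among these cells as well as in how many cells had the gene.

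*Crtac1* was read in 27 of 42 V1 cells (64.3%, interval 48.0 to 78.4) and 32 of 34 S1 cells (94.1%, 80.3 to 99.3). V1 cells ran from 0 over a median of 14.9 to 759 CPM, and S1 cells from 0 over a median of 237 to 868 CPM. The highest cells of both areas are alike, and it is the low and middle cells that differ. The log2 means were 3.87 and 7.29, a difference of 3.41 with an SD over days of 2.19, and the days gave 4.59, 2.62, 8.06, 2.89 and 3.94. The series gave 3.59 and 3.28. Pooled over cells, the level was 99.3 CPM in V1 and 294 CPM in S1.

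The other 5 members differed by less than 4-fold between areas in L4. *Olfm1* differed by -1.22 (SD over days 1.82, lower in S1 in 3 of 5 days), *Olfm2* by 0.84 (SD 2.88), *Nell2* by -0.51 (SD 1.43) and *Olfm3* by -0.31 (SD 3.19). Each of these is within the spread over days. *Spon1* differed by -0.40 (SD 1.11) and was lower in S1 in all 5 days, but it was read in only 10 of 42 V1 and 8 of 34 S1 cells, and 1 S1 cell held 80.7% of its S1 counts. Without day 7 its difference was 0.15.

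The levels of oligodendrocyte markers differed between areas as well. Of the 4 genes *Mbp*, *Mog*, *Mag* and *Mobp*, 3 had reads in V1 L4 (*Mag* was at 0) and 4 in S1 L4. Their summed level in L4 was 226 CPM for V1 and 1033 CPM for S1, with single cells from 0 to 3717 and from 0 to 9510 CPM. In L5 it was 200.3 CPM in V1 and 636 CPM in S1. The part of these RNAs in the area differences of *Npnt* and *Crtac1* was not tested. Vascular markers summed to 1.62 CPM in V1 L4 and 4.27 in S1 L4, with *Lum* at 0 in both, and excitatory markers to 18.5 and 5.94 CPM.

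The promoters of *Npnt* and *Crtac1* are shown because both genes were higher in S1 L4, and that of *Olfm3* because few L5 cells had reads of it. Each is the 250 bases before a RefSeq transcription start on GRCm38, and 7 of the 9 members had an entry, with 13 starts in all. For *Npnt* it is chr3:132950292-132950541 on the minus strand, for *Crtac1* chr19:42431789-42432038 on the minus strand and for *Olfm3* chr3:114903828-114904077 on the plus strand, and none of these windows overlaps an annotated exon of its gene. Each of the 3 genes has a second RefSeq start, whose window is not printed. Capitals mark the GC box, searched as GGGCGG on both strands with overlapping matches allowed.
Npnt: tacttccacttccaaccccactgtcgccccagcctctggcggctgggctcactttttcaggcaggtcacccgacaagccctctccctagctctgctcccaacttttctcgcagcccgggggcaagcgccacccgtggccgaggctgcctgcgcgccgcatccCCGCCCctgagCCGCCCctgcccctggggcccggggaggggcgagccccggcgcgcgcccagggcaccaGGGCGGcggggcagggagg
Crtac1: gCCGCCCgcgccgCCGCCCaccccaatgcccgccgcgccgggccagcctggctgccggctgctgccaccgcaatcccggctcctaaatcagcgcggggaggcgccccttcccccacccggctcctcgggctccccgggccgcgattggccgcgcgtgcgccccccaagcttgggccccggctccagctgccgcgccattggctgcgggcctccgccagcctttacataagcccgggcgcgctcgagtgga
Olfm3: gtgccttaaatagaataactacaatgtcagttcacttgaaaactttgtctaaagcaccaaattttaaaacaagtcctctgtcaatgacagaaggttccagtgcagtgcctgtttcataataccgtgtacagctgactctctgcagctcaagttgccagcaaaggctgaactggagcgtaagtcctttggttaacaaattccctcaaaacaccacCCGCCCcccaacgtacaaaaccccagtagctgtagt
The *Npnt* window holds 3 GC boxes, the *Crtac1* window 2 and the *Olfm3* window 1, and the windows at their second starts hold 0, while 32.7% of all 32851 windows of that length hold at least 1. G and C make up 74% of the *Npnt* window, 77.6% of the *Crtac1* window and 44% of the *Olfm3* window, beside a median of 52.4% over all windows. The *Crtac1* window also holds 3 matches to CCAAT on either strand, found in 33.8% of windows, and none of the 3 windows holds TATAAA, found in 12.4%. A match describes the letters of the window and is not a bound site.

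**Figure D3:**
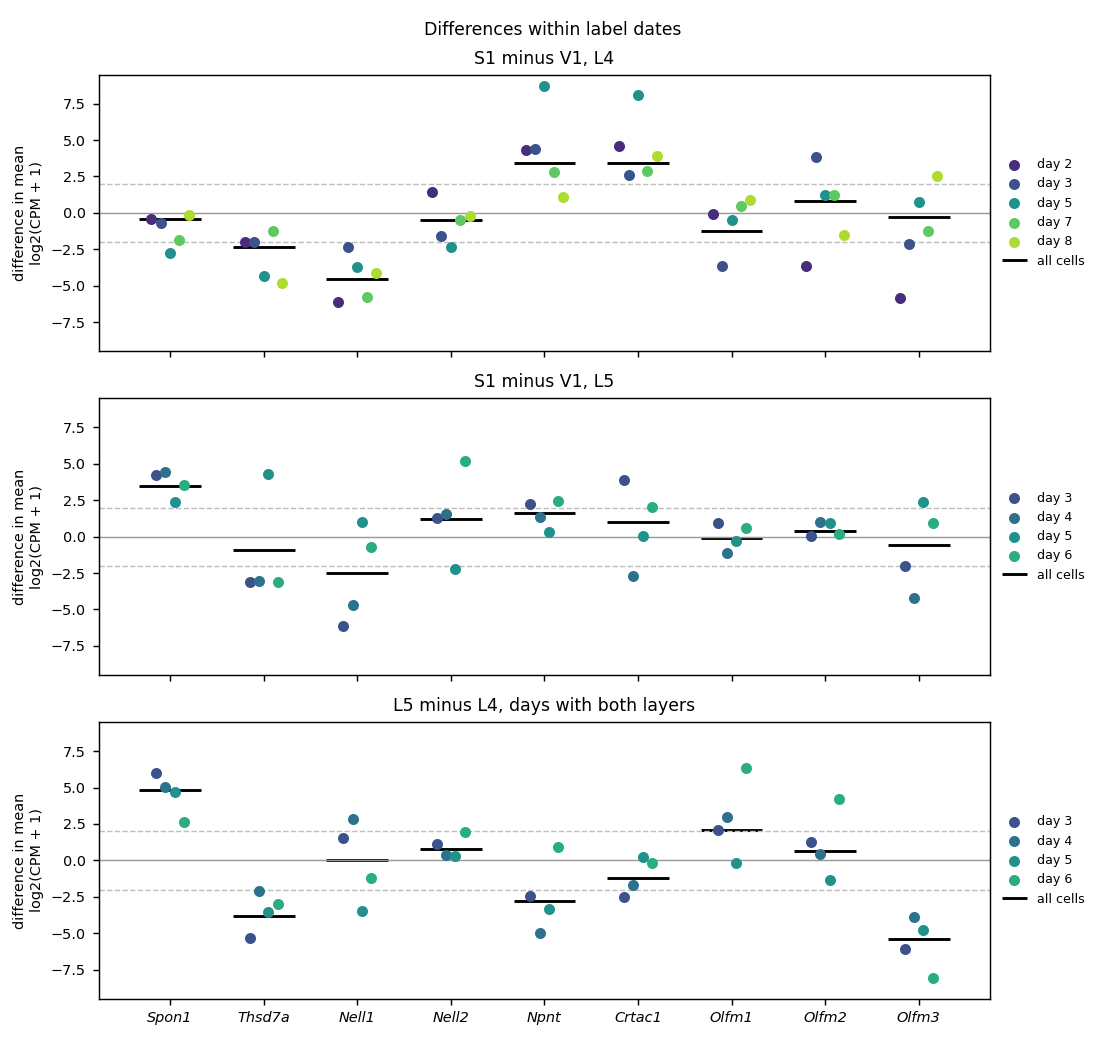
Differences in mean log2(CPM + 1) for each gene, S1 minus V1 in L4 (top), S1 minus V1 in L5 (middle) and L5 minus L4 (bottom). Points are the days of the label dates, the black line is the difference over all cells of the comparison, and the dashed lines mark a 4-fold difference. *Nell1* lies below 0 in all 5 days of the L4 comparison, and *Spon1* above 0 in all 4 days of both lower panels.

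In L5, the area comparison rested on 16 S1 and 17 V1 cells from 4 days. *Spon1* was higher in S1 and *Nell1* lower, each by more than 4-fold, and these were the 2 of 9 members past that size. Of the 6402 genes past the filter 5.45% were that far apart, and their median difference was 0.24. *Nell2*, *Npnt* and *Olfm3* did not pass the filter here.

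*Spon1* had reads in 14 of 16 S1 cells (87.5%, interval 61.7 to 98.4) and in 9 of 17 V1 cells (52.9%, 27.8 to 77.0). In S1 the lowest cell was at 0, the median at 958 and the highest at 2181 CPM, and in V1 these were 0, 0.683 and 2286 CPM. The highest cells of the areas are alike, and the median V1 cell is near 0. Among V1 L5 cells 8 had at least 32 counts, and among S1 L5 cells 12 did. The difference of 3.50 in log2 means had an SD over days of 0.95, and days 3, 4, 5 and 6 gave 4.24, 4.45, 2.35 and 3.55.

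*Nell1* was read in 4 of 16 S1 L5 cells and 9 of 17 V1 L5 cells, at pooled levels of 26.4 and 176.9 CPM. In S1 the lowest and median cells were at 0 and the highest at 254 CPM, and in V1 these were 0, 117.3 and 482 CPM. Its difference of -2.52 was within the SD over days of 3.32. Days 3 and 4 gave -6.11 and -4.67, day 5 gave 1.01 and day 6 gave -0.74, so the direction was not the same in every day. Without day 3 it was -1.34 and without day 4 -1.92.

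For the other 7 members the L5 area difference was under 4-fold. *Npnt* differed by 1.63 (SD over days 0.98) and was higher in S1 in 4 of 4 days, with reads in 6 of 16 S1 cells and 1 of 17 V1 cells. *Crtac1* differed by 1.02 (SD 2.80), *Nell2* by 1.22 (SD 3.02), *Thsd7a* by -0.92 (SD 3.70), *Olfm3* by -0.56 (SD 2.94) and *Olfm1* by -0.09 (SD 0.93), all within the spread over days. *Olfm2* was higher in S1 in 4 of 4 days, by 0.38 (SD 0.48). Without day 5, 5 of the 9 members were past 4-fold in place of 2, and without day 3 or day 4 the number was 1.

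The layers were compared over the days that held both, days 3 to 6, with 33 L5 cells and 19 L4 cells. The L5 cells were 17 of V1 and 16 of S1, and the L4 cells 7 of V1 and 12 of S1. Area and layer are thus not balanced, also within days, so a gene that differs by area can differ here as well. *Spon1* and *Olfm1* were higher in L5, and *Olfm3*, *Thsd7a* and *Npnt* were lower, each by more than 4-fold. These are 5 of the 9 members, and 8 passed the filter (*Nell2* did not). Of the 8124 genes past the filter 2.56% were 4-fold or more apart, and 1.88% with 1 sign in every day, which held for *Spon1*, *Olfm3* and *Thsd7a*.

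*Spon1* differed between layers by 4.85 in log2 means (SD over days 1.39), with 5.98, 5.03, 4.67 and 2.67 in days 3 to 6. Over all kept L4 cells its pooled level was 16.6 CPM in V1 and 7.87 CPM in S1, beside 391 and 877 CPM in L5 of these areas. Within V1 the layer difference was 2.94 and within S1 it was 6.78, higher in L5 in 2 of 2 and 3 of 3 days. In V1, 1 L5 cell held 47.1% of the counts.

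*Olfm3* showed the reverse. It was read in 33 of 42 V1 and 28 of 34 S1 cells of L4 but in 4 of 17 V1 cells (23.5%, interval 6.81 to 49.9) and 3 of 16 S1 cells (18.8%, 4.05 to 45.6) of L5. The median L4 cell was at 241 CPM in V1 and 152.5 CPM in S1, and the median L5 cell was at 0 in both areas. Some L5 cells reached L4 levels, since the highest V1 L5 cell was at 993 CPM and held 64.6% of that group's counts. The layer difference was -5.41 (SD over days 1.83), with -6.10, -3.88, -4.78 and -8.11 in days 3 to 6. It was -4.89 within V1 and -5.85 within S1.

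*Thsd7a* was lower in L5, with a difference of -3.79 (SD over days 1.37) and with -5.35, -2.11, -3.51 and -2.99 in the 4 days. It was read in 9 of 17 V1 L5 and 9 of 16 S1 L5 cells, with the highest at 767 and 300 CPM. Within V1 the difference was -5.10 and lower in 2 of 2 days, and within S1 it was -3.23 and lower in 2 of 3 days. *Npnt* differed by -2.80 (SD 2.47, lower in 3 of 4 days). It was -3.69 within S1 and -0.62 within V1. The V1 value rests on 1 of 7 L4 cells with reads, both days with enough cells gave 0, and with the L4 cells of all days it was -1.96. With a pseudocount of 10 the layer difference of *Npnt* over both areas was -1.67.

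*Olfm1* was higher in L5 by 2.09 (SD over days 2.72), in 3 of 4 days, which is within its spread, and it was under 4-fold without day 4 (1.87) and without day 6 (1.55). It was read in 16 of 17 V1 and 15 of 16 S1 cells, beside 31 of 42 and 23 of 34 in L4. *Olfm2* was present in most cells of every group, with reads in 34 of 42 V1 and 29 of 34 S1 cells of L4 and in 16 of 17 and 16 of 16 cells of L5, and with a layer difference of 0.67 (SD 2.32). *Nell2* differed by 0.81 (SD 0.78) and was higher in L5 in 4 of 4 days, but as a difference of medians it was at 0. Within V1 it was at -1.29 and within S1 at 2.32, so its sign was not the same in both areas. *Crtac1* differed by -1.23 (SD 1.28) and *Nell1* by 0.06 (SD 2.81), and the *Nell1* layer difference was within its spread over days. *Crtac1* was at 0.47 within V1 and -1.99 within S1, and *Nell1* at -1.28 and 0.25.

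Within areas the layer comparison was smaller, with 17 L5 and 7 L4 cells in V1 and 16 L5 and 12 L4 cells in S1. In V1, 4 members were past 4-fold, beside 11.1% of the 4778 genes past the filter. They were *Thsd7a*, *Olfm3*, *Spon1* and, at 2.44, *Olfm2*, which was higher in 1 of the 2 days and was at 1.76 without day 3 and 1.36 without day 6. *Spon1* and *Olfm3* did not pass the filter here, so 2 of the 5 members that passed are among the 4. As a difference of medians *Spon1* was at 0.75. In S1, 6 members were past 4-fold, beside 8.43% of 5895 genes. They were *Spon1*, *Olfm3*, *Npnt*, *Thsd7a*, *Olfm1* at 3.08 and *Nell2* at 2.32, and *Nell2* did not pass the filter, so 5 of the 7 members that passed are among the 6. *Thsd7a* was at -1.23 without day 3 and *Nell2* at 1.70 without day 6.

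*Nell2* was low in most cells and in few of them high. Its pooled level in L4 was 21.1 CPM for V1 and 14.6 CPM for S1, and in L5 it was 13.4 and 96.3 CPM, where a single cell held 66.0% of the V1 and 62.2% of the S1 counts. The excitatory marker list in L5 was at 13.7 CPM for V1 and 17.2 CPM for S1, and its part in the *Nell2* reads was not tested.

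**Figure D4:**
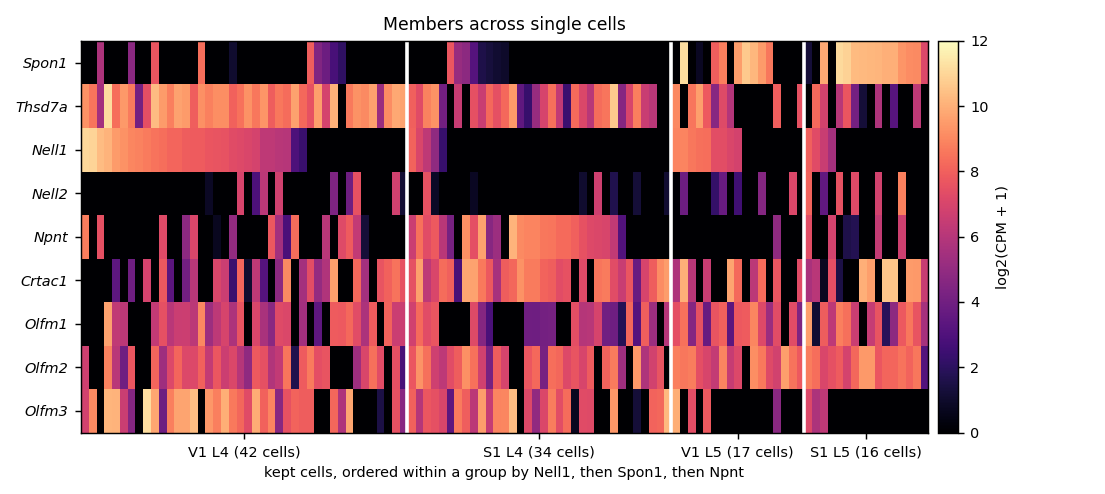
Level of the 9 genes (rows) in each kept cell (columns), in log2(CPM + 1) by colour from black at 0 to pale yellow. Cells are ordered within each group by *Nell1*, then *Spon1*, then *Npnt*. In S1 L5 the 4 cells with *Nell1* reads stand at the left through this order. Of these 4, 1 also had high *Spon1*, at 9.82, and *Olfm3* reads lie within the 4.

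Pairs of members were then followed in the same cells. There are 36 pairs, and the pairs named here were chosen after their values were seen. Among V1 L4 and S1 L5 cells every pair had at least 1 cell with both genes. In S1 L4 1 pair had none and in V1 L5 5 pairs had none, and 3 of those 5 involve *Npnt*, which had reads in a single V1 L5 cell. The correlations are Pearson's r of log2(CPM + 1) over the cells of a group, which share days and animals, and they are descriptions.

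In V1 L5 cells with *Spon1* and cells with *Olfm3* were different cells. There, 9 cells had *Spon1* and 4 had *Olfm3*, and 0 of 17 had both, which allows a share of up to 19.5%. The product of the shares gives 2.12 cells. In S1 L5, 14 had *Spon1*, 3 had *Olfm3* and 2 had both, beside 2.62 from the product, and at 32 counts or more only 1 had both. *Spon1* and *Thsd7a* were read in 9 V1 L5 cells each and together in 3, beside 4.76 from the product, and at 32 counts or more in 8 cells each and together in 1 (r = -0.63 over 17 cells). In S1 L5 the same pair was together in 8 of 16 cells, beside 7.88 from the product (r = 0.12). The difference between the areas was not tested.

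*Spon1* and *Nell1* had the lowest correlation of any pair within a group, r = -0.80 over the 16 S1 L5 cells. Of these cells 14 had *Spon1*, 4 had *Nell1* and 2 had both. In the 12 cells with at least 32 *Spon1* counts the mean *Nell1* level was 0.55 in log2(CPM + 1), and in the other 4 cells it was 5.19. In V1 L5 the pair was together in 5 of 17 cells, beside 4.76 from the product (r = -0.09). *Nell1* and *Olfm3* went together in S1 L5, where 3 of the 4 *Nell1* cells were also the 3 *Olfm3* cells (r = 0.89). *Thsd7a* and *Olfm3* went together in V1 L5, where all 4 *Olfm3* cells had *Thsd7a* (r = 0.60 over 17 cells).

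In V1 L4, where *Nell1* cells are the majority, *Nell1* and *Crtac1* had the lowest correlation (r = -0.41 over 42 cells) and *Nell1* and *Olfm3* the highest (r = 0.41). *Nell1* was read in 29 cells, *Crtac1* in 27 and both in 17, beside 18.6 from the product, so they were not exclusive. At 32 counts or more, 27 and 20 cells had the genes and 9 had both, beside 12.9 from the product. *Nell1* and *Olfm3* were together in 26 cells, beside 22.8. In the 27 cells with at least 32 *Nell1* counts the mean log2 level was 3.11 for *Crtac1* and 7.49 for *Olfm3*, and in the other 15 cells it was 5.24 and 4.09.

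**Figure D5:**
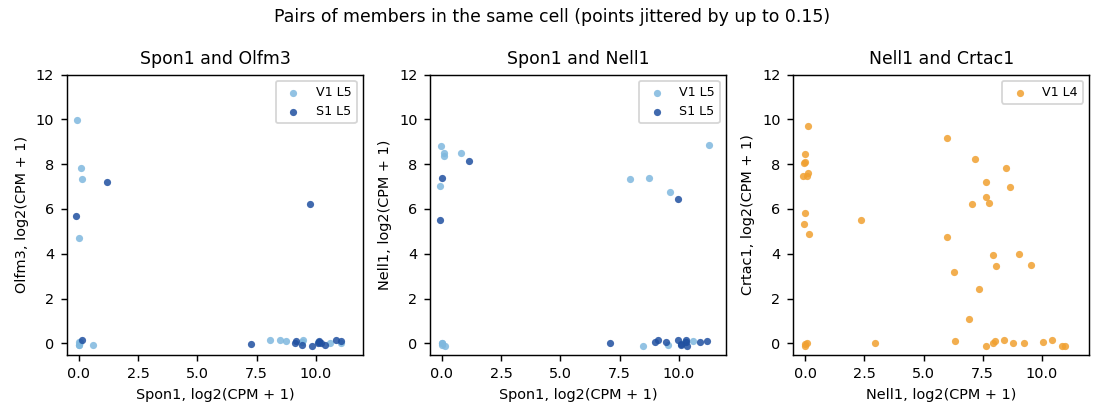
Levels of a pair of genes in the same cell, in log2(CPM + 1) on both axes, with *Spon1* against *Olfm3* and *Spon1* against *Nell1* in L5 and *Nell1* against *Crtac1* in V1 L4. Each point is a cell, moved by at most 0.15 for visibility. In the left panel 0 of 17 V1 L5 cells and 2 of 16 S1 L5 cells hold both genes, while 17 of 42 cells in the right panel hold both.

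Cells with at least 32 counts of a member were also set beside the other cells for genes that name somatostatin types of a reference atlas. These are *Hpse*, *Cbln4*, *Calb2* and *Pdlim5*. The split is by counts, so it also depends on the depth of a cell, and some of the other cells had reads of the member. In V1 L4, *Calb2*, which encodes calretinin, was read in 17 of the 27 cells with at least 32 *Nell1* counts and in 3 of the other 15. *Cbln4*, which encodes a secreted synapse organiser, was read in 22 of those 27 and in 6 of the other 15. In S1 L5, *Hpse*, which encodes heparanase, an enzyme that cuts heparan sulfate in the matrix, was read in 2 of the 12 cells with at least 32 *Spon1* counts and in all 4 of the others. Of these 4, 1 had 18 *Spon1* counts, at 7.14 in log2(CPM + 1), and 1 had 1 count. In V1 L5, *Cbln4* was read in 0 of 8 cells with that many *Spon1* counts and in 5 of the other 9. The splits above were picked after their values were seen, and others were less marked. By *Spon1* counts, *Hpse* in V1 L5 was read in 1 of 8 and 3 of the other 9 cells. *Cbln4* in S1 L5 was read in 1 of 12 and 1 of the other 4. By *Npnt* counts, *Hpse* in S1 L4 was read in 17 of 24 and 6 of the other 10 cells.

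Of these 4 genes, *Hpse* was higher in S1 L4 by 2.17 (SD over days 3.58, 3 of 5 days) and *Calb2* lower, at -2.44 (SD 0.83, 5 of 5 days). Between layers *Cbln4* differed by -3.46 (SD 2.67, lower in L5 in 4 of 4 days) and *Hpse* by -2.57 (SD 2.82, 3 of 4 days). *Cbln4* was also past 4-fold within V1, at -4.78, and within S1, at -2.97, where it did not pass the filter. *Calb2* was at -3.94 within V1, where it did not pass the filter, and *Hpse* was at -4.02 within S1.

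Relatives of the members and their binding partners were counted in the same way. Of 14 relatives (*Spon2*, *Thsd7b*, the thrombospondins, *Egfl6* and other olfactomedins), 4 passed the filter in the L4 area comparison and 0 in the L5 and layer comparisons. Of the 14, 0 were past 4-fold between areas or layers, and within V1 *Thbs1* was lower in L5, at -2.54, without passing the filter. Their median difference was -0.05 between areas in L4 and 0.00 between areas in L5 and between layers. Of 16 partners, 11, 9 and 10 passed the filter in these 3 comparisons and 0, 1 and 0 were past 4-fold, with medians of -0.34, 0.09 and 0.05.

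The partners of the members ranged from genes read in few of the same cells to genes read in all of them. *Itga8*, the alpha8 integrin chain bound by nephronectin, was read in 3 of 42 V1 and 0 of 34 S1 cells of L4, which allows a share of up to 10.3%, while the beta1 chain *Itgb1* was read in 35 and 28. *Robo3*, the receptor of NELL2, was read in 5 of 42 V1 and 0 of 34 S1 cells of L4 and in 1 V1 and 1 S1 cell of L5. *Rtn4r*, the Nogo receptor, was read in 1 V1 L4 cell and 1 S1 L5 cell. In contrast *Lrp8*, which encodes the ApoE receptor 2 that F-spondin binds, was read in 36 and 24 cells of L4 and in 12 and 14 of L5. Among other partners, *App*, *Gria1* and *Gria2* were read in all 42 V1 and 34 S1 cells of L4. There *Robo2* was read in 34 and 29 cells, *Vldlr* in 24 and 20, *Cntnap4* in 14 and 3, and *Ngfr* in 0 and 0.

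The partners past 4-fold were few. *Robo2* was higher in S1 L5 than in V1 L5 by 2.70 (SD over days 1.88, 3 of 4 days). Within S1, *Vldlr*, a lipoprotein receptor, was higher in L5 by 2.33, and *Gria1*, an AMPA receptor subunit, differed by -2.03. *Cntnap4* differed by 2.89 within S1, where it did not pass the filter. Its L4 mean there was 0.00 in these days, so the size of the difference depends on the pseudocount.

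The genes whose levels most resembled those of a member were found over all kept cells among 9993 genes. They share the cells, their depth and the differences between groups with the member. For *Spon1* they were *St6galnac5*, *Crh* and *Sema3e*, each at r = 0.63. Within V1 L5 alone these stood at 0.67, 0.75 and 0.66, and within V1 L4 at 0.11, -0.13 and -0.10. Within S1 L5 they stood at 0.54, 0.36 and 0.64, and within S1 L4 at -0.12, -0.07 and 0.22. For *Thsd7a* they were *Kirrel3* (0.52), *Ptprd* (0.50) and *Dmd* (0.48), and *Ptprd* also led for *Olfm3* (0.54), with *Pde1a* (0.51) and *Pdyn* (0.50). For *Nell1* they were *Calb2* (0.55), *Pcsk5* (0.51) and *Mrap2* (0.47), and for *Npnt* they were *Ifit1* (0.51), *Rerg* (0.51) and *Syndig1* (0.44). *Crtac1* was nearest to *Htra1* (0.44), *Khdrbs1* (0.38) and *Kcnip1* (0.38). *Nell2* was nearest to *Ptprt* (0.48), *9430021M05Rik* (0.46) and *Erbb4* (0.45). *Olfm1* was nearest to *Psma4* (0.47), *Dlg1* (0.45) and *Gm13889* (0.45), and *Olfm2* to *Gpbp1* (0.48), *Sep15* (0.48) and *Rbp4* (0.46). Values within a group can differ from these. *Dmd* with *Thsd7a* stood at 0.76 within V1 L5, and at -0.08, 0.10 and 0.11 within V1 L4, S1 L4 and S1 L5.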

How the data were processed

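Single-cell RNA was measured by Patch-seq in 118 cells. The authors aligned single-end reads with STAR 2.4.2a to mm10 after bcl2fastq 2.20 and deposited read counts per gene, not normalized, and RPKM values that they computed with rpkmforgenes and RefSeq gene models. The counting tool is not given in the sources used here. Entries with the same symbol were summed (24490 entries, 23998 symbols). The counts gave all results, and the deposited RPKM values served to order genes per length and as an alternative.

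Counts were scaled to the total of the cell and given as log2(CPM + 1), with a pseudocount of 1, which shrinks differences between low levels. A difference of 2 in log2 means was called 4-fold. It is not a fold of pooled levels, since the share of cells without a read weighs on the mean, and it can be the larger of both. In L4 the pooled levels of *Thsd7a* and *Crtac1* were less than 4-fold apart. Genes passed a filter of at least 32 counts in at least 10 cells of a comparison. No test was run, because each area and layer is 1 sample. The members, gene lists, pairs and settings were chosen with earlier results of these data known. Each of the 9 members was named in every comparison, with the 3 nearest genes of those past 4-fold in any of them, and list genes when past 4-fold or as partners of a member. The alternatives changed the pseudocount, library scaling, unit, depth, summary over cells, filters, series and each day. The functions were checked on simulated counts. Marker lists not described in the text are given here by pooled level, first L4 of V1 and of S1, then L5 of both. Astrocyte markers were at 99.2, 52.5, 6.95 and 64.3 CPM, microglia markers at 197, 148, 415 and 101 CPM, oligodendrocyte precursor markers at 4.16, 33.7, 5.75 and 11.3 CPM, and markers of other interneurons at 13.1, 48.6, 35.6 and 63.4 CPM. The oligodendrocyte list was used without 1 marker, which is not reported here. Cells left out as glutamatergic or without *Sst* entered no reported comparison, and those without *Sst* entered 1 alternative. TMM scaling came from edgeR 4.0.16 under R 4.3.3, figures from matplotlib 3.10.9, and the rest from SciPy 1.17.1, pandas 2.3.3 and NumPy 2.4.6 under Python 3.11.15. Promoters are from RefSeq and exons from GENCODE, both on GRCm38.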

Additional observations from a re-analysis of the deposited data

Results flagged for a closer look

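The area difference of *Spon1* had opposite signs in the layers. It was -0.40 in L4, lower in S1 in 5 of 5 days, and 3.50 in L5, higher in S1 in 4 of 4 days. Without day 7 the L4 difference was 0.15, and *Spon1* did not pass the filter in L4. The difference between the layers was not tested, and *Spon1* was read in 10 of 42 and 8 of 34 cells in L4, with 80.7% of the S1 L4 counts in 1 cell.

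The layer difference of *Olfm1* was 0.34 within V1 and 3.08 within S1. Both V1 days with enough cells were lower in L5, although the difference over all V1 cells was above 0, and all 3 S1 days were higher. This too was not tested.

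Cells left out of the comparisons also had reads of some members. The 4 S1 L4 cells without an *Sst* read together had 2406 counts of *Crtac1*, 2274 of *Olfm1*, 572 of *Npnt* (in 1 cell), 431 of *Olfm3*, 306 of *Olfm2* and 4 of *Thsd7a*, and no reads of *Spon1*, *Nell1* or *Nell2*. The V1 L5 cell called glutamatergic had 1214 counts of *Nell2*, 786 of *Olfm1*, 382 of *Spon1*, 44 of *Olfm3* and 23 of *Crtac1*. In CPM its *Nell2* level was 1598, above the highest kept cell at 458 CPM. It is a single cell and gives no value for its type.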

How the results depend on the processing

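With a pseudocount of 10, 1 member was past 4-fold between areas in L5 (2 as reported) and 3 between layers (5 as reported). Leaving out a day gave between 1 and 5 members past 4-fold between areas in L5. No member difference past 4-fold changed sign under any alternative run. Of 405 member differences under the other alternatives 364 stayed within the SD over days of the reported value, as did 216 of 225 without a day. This SD is often wide, and leaving out a day moves a mean over all cells little beside it, so these counts are a weak check. For *Nell1* between areas in L5 the SD was 3.32, and a change from -2.52 to -1.34 without day 3 lies within it. Of the detection shares, 12 left their intervals. The numbers of genes past 4-fold, which serve as background, moved more. A pseudocount of 10 gave the fewest and medians over cells nearly always the most. Between areas in L4 97 became 9 and 1314, and RPKM gave 33, means within days 349, the first series 314, the second 365 and leaving out a day up to 150. Between areas in L5 349 became 11 and 1534. Between layers 208 became 26 and 1610, and RPKM gave 84, means within days 345 and leaving out a day up to 406. Within V1 528 became 63 and, with no filter, 1078, and within S1 497 became 46 and 1559. The share of cells with both *Nell1* and *Crtac1* in V1 L4 was 40.5% at 1 count and 21.4% at 32 counts. Few cells had reads of *Nell2*, *Npnt* and *Olfm3* in L5 and of *Spon1* in L4, which limits statements on them. The labels give no replicate numbers that pair samples, and the differences within days are the values that compare cells of the same date.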
